A study of Sus scrofa with 12 samples.

Results

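Goblet cells are the mucus-secreting cells of the intestinal epithelium, and the genes described here are ones they depend on or that code for mucins. 9 gene names were listed: the mucins MUC1, MUC2, MUC4 and MUC13, the secreted goblet cell products TFF3, CLCA1 and FCGBP, the mucin-folding enzyme AGR2 and the transcription factor SPDEF. A row of the gene table was taken where its gene name was one of these, and rows that shared a name were added together. 6 of the 9 names were found, at 10 of the 41264 loci of the table, which held 17049 different gene names. MUC2, MUC4 and FCGBP matched no gene name and were not analysed here. They were not sought by Ensembl ID, so they may be present under another identifier. Of the loci, 17650 (42.8%) carried no gene name.

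Jejunum was collected from piglets at the end of suckling and 7 days after weaning, and its polyadenylated RNA was sequenced. The 12 libraries formed 4 groups of 3: sucking piglets of 21 days (W_Con) and weaned piglets of 28 days (PW_Con) from control sows, and the same ages (W_Res and PW_Res) from sows fed 300 mg of resveratrol per kg of diet from early gestation through lactation. Resveratrol is a plant polyphenol. Age and weaning changed together in both weaning comparisons, so they cannot be told apart. All sows were mated with pooled Landrace boar semen per the series record, the study's methods give Yorkshire × Duroc litters and 1 male piglet from each for the control groups, and piglets were cross-fostered within a sow treatment. The record keeps weaned piglets in their pens after the sow was removed, while the methods move them to a nursing room and give creep feed. P-values rest on the spread between libraries within groups, pooled for each gene over all 4 groups. They do not rest on the spread of the compared groups alone.

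Secreted goblet cell mucus is built from very large glycoproteins that are folded in the endoplasmic reticulum, sugared in the Golgi apparatus, packed into granules and released over the epithelium. Transmembrane mucins such as MUC1 and MUC13 stay anchored in the apical membrane of epithelial cells and form the glycocalyx under that mucus. TFF3 is a small trefoil peptide released with mucus and known for its part in epithelial repair. CLCA1 is a secreted metalloprotease of mucus, AGR2 is a disulfide isomerase of the endoplasmic reticulum needed for mucin assembly, and SPDEF drives the maturation of goblet cells.

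Levels are given in FPKM, fragments counted per length of transcript and per size of the library, as the authors deposited them. Over all 12 libraries, TFF3 had the highest mean of the 6 genes, at 867 FPKM, and ranked 33 among the 17049 gene names. CLCA1 (234 FPKM, rank 195) and MUC13 (175 FPKM, rank 265) came next, ahead of SPDEF (81.2 FPKM, rank 609) and AGR2 (60.0 FPKM, rank 811). MUC1 was the lowest, at 0.503 FPKM and rank 12876, and all 6 passed the minimum mean of 0.5 FPKM for testing. TFF3 made up 27.7% to 79.9% of the summed FPKM of the 6 genes in a library, with a median of 60.2%. The spread between libraries was wide: the highest library exceeded the lowest 4.56-fold for CLCA1, 5.73-fold for AGR2, 5.88-fold for TFF3, 9.25-fold for SPDEF, 11.2-fold for MUC13 and 55.1-fold for MUC1. Other goblet cell products were present in every library too, among them SPINK4 at 78.7 to 435 FPKM and RETNLB at 52.9 to 180 FPKM.

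**Figure D1:**
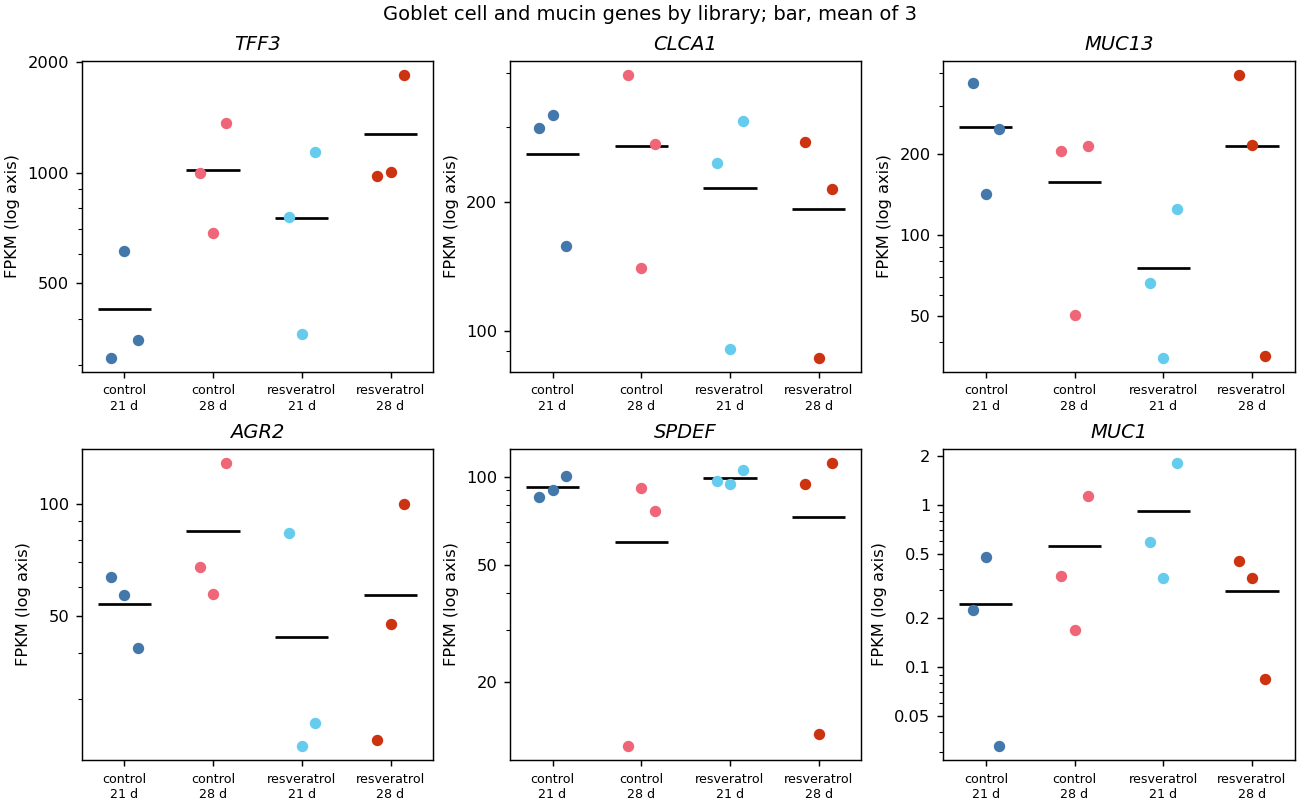
FPKM of the 6 genes (log axes, one scale per panel) in the 3 libraries of each group, with the group mean as a bar. For TFF3 the 3 weaned control libraries lie between 683 and 1364 FPKM, above the 3 sucking control libraries at 313 to 610 FPKM, while for MUC13 the 3 sucking resveratrol libraries lie at 35.0 to 125 FPKM, below the sucking controls.

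A library-wide check gave replicate correlations of 0.881 to 0.961 across 12886 genes and no identical values above 0 between replicates of a group. The libraries, all labelled jejunum, were not alike in tissue makeup. FABP6, the ileal bile acid carrier and a marker of the distal small intestine, was under 15 FPKM in 4 libraries (W_Con replicate 3, W_Res replicate 2, PW_Res replicates 2 and 3) and at 128 to 24110 FPKM in the other 8. The summed FPKM of 6 smooth muscle genes (8 listed) was 150 to 631 in W_Con, 406 to 556 in PW_Con, 195 to 634 in PW_Res and 656 to 3905 in W_Res, where replicate 2 held the highest sum. In whole tissue, fewer goblet cells and less RNA per goblet cell cannot be told apart.

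The first question was what weaning did in the litters of control sows. TFF3 rose, and it was the one gene of the 6 to reach the standard of the study, an unadjusted P under 0.05 with an absolute log2 fold change over 1. TFF3 was at 313, 610 and 350 FPKM in the sucking piglets and at 995, 683 and 1364 FPKM in the weaned piglets, so every weaned library was above every sucking one. The means were 424 ± 162 FPKM (SD, n = 3) and 1014 ± 341 FPKM (SD, n = 3). On the log2(FPKM + 1) scale the change was 1.26 (SE 0.45, 95% confidence interval 0.29 to 2.24, limma Benjamini-Hochberg adjusted p = 0.212 over 12886 genes). Thus the call held at the unadjusted standard and not after adjustment, where 0% of all genes passed. It was also lost without W_Con replicate 1 (log2 fold change 1.07) and without PW_Con replicate 3 (1.02). Of all genes tested, 3.1% reached the standard in this comparison (1.36% upwards and 1.74% downwards), 15.3% had an unadjusted P under 0.05 and 24.9% had groups that did not overlap.

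None of the other 5 genes reached an unadjusted P of 0.05 in control litters, and their sucking and weaned libraries overlapped. CLCA1 was at 299, 320 and 158 FPKM in the sucking piglets and at 396, 141 and 273 FPKM in the weaned piglets. Its log2 fold change was 0.01 with an interval of -1.22 to 1.23, which leaves room for more than a doubling or a halving. AGR2 was at 63.9, 57.2 and 41.0 FPKM before weaning and 67.7, 57.5 and 129 FPKM after it, with a log2 fold change of 0.57 (interval -0.66 to 1.80). Without the high weaned library, replicate 3, it was 0.23. MUC13 was at 367, 142 and 248 FPKM before and 205, 50.4 and 215 FPKM after weaning, and its log2 fold change was -0.84 (interval -2.67 to 0.99). Without PW_Con replicate 2 it was -0.16, without W_Con replicate 1 it was -0.52, and with the regional score described below as a covariate it was -1.55. The MUC13 libraries of both ages shared the range from 142 to 215 FPKM. MUC1 was at 0.226, 0.474 and 0.0327 FPKM against 0.364, 0.168 and 1.13 FPKM, with a log2 fold change of 0.29 (interval -0.40 to 0.98). Across the 6 genes the median log2 fold change was 0.15, beside -0.01 over all genes tested.

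SPDEF requires its own account, because 2 loci carried its name. One locus consisted of 3 assembled transcripts with no Ensembl transcript and gave 60.1% to 98.1% of the summed value. The other held an Ensembl transcript with 6 assembled ones and was at 1.80 to 7.67 FPKM. The first locus was at 72.0 to 104 FPKM in 10 libraries and at only 7.25 FPKM in PW_Con replicate 1 and 8.37 FPKM in PW_Res replicate 2. The summed SPDEF value therefore was 85.6, 90.5 and 101 FPKM in W_Con, 12.1, 91.5 and 76.7 FPKM in PW_Con, 96.7, 94.9 and 106 FPKM in W_Res and 94.9, 13.2 and 111 FPKM in PW_Res. In each weaned group 1 low library sat beside 2 that were near the sucking level. The log2 fold change on weaning in control litters was -1.03 (interval -2.77 to 0.70), and -1.55 to -0.13 over fits that left out 1 library. In resveratrol litters it was -0.90 (interval -2.63 to 0.83). With the Ensembl locus alone, an alternative chosen after seeing the data, the control and resveratrol values became 0.34 and 0.52. The direction of SPDEF thus depended on the locus. Neither form reached the standard in either comparison.

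**Figure D2:**
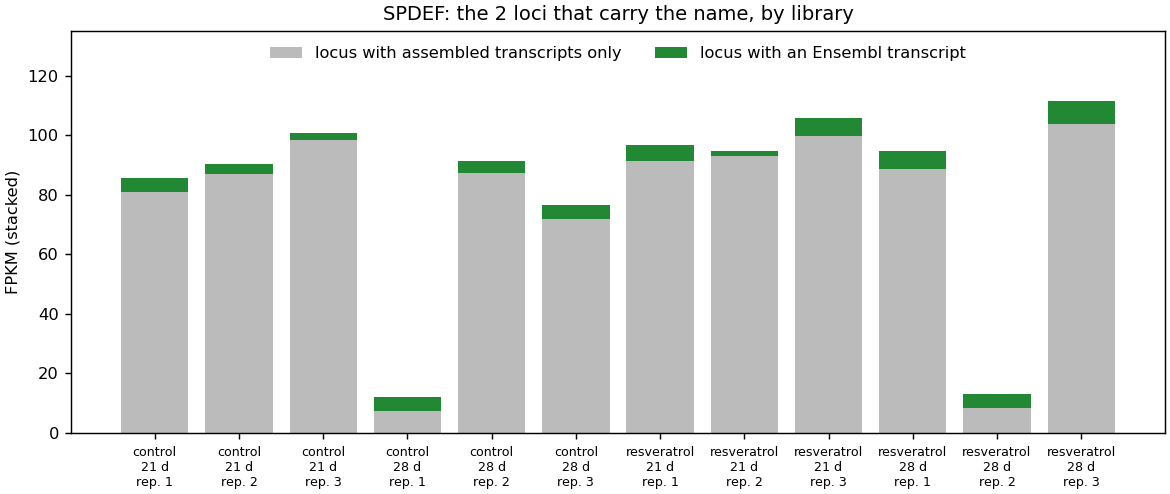
FPKM of the 2 loci named SPDEF, stacked, in each of the 12 libraries (linear axis from 0). The locus with assembled transcripts only falls to 7.25 and 8.37 FPKM in 1 weaned control and 1 weaned resveratrol library, while the locus with an Ensembl transcript stays between 1.80 and 7.67 FPKM.

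The second question was what weaning did in the litters of sows fed resveratrol. MUC1 has no test in this comparison, for the reason given below. None of the other genes of the 6 reached the standard or an unadjusted P under 0.05 with limma, where 4.94% (0.986% upwards and 3.95% downwards) and 17.6% of all genes did. The groups overlapped for all 6, while they did not for 21.7% of all genes. Cell markers fell past the standard in this comparison: 5 of 6 smooth muscle genes (median -2.32) and POU2F3, 1 of 3 tuft cell genes. The other cell marker lists held 0 calls, and the part of these shifts was not tested. TFF3 was at 758, 363 and 1141 FPKM in sucking and 981, 1001 and 1841 FPKM in weaned piglets. Again the weaned mean was the higher one (1275 ± 491 against 754 ± 389 FPKM, SD, n = 3), but W_Res replicate 3 lay within the weaned range. The log2 fold change was 0.84 (SE 0.45, interval -0.14 to 1.82, limma adjusted p = 0.348). It reached the standard without W_Res replicate 3 (1.21) and under median-of-ratios rescaling (1.06), a scaling that moved the median of all genes by 0.17 in this comparison. It was smaller without W_Res replicate 2 (0.39) or PW_Res replicate 3 (0.54), and without the 4 libraries low in FABP6, which leaves 1 library in PW_Res, it was 0.078 (adjusted p = 0.997). The weaning effects on TFF3 in the 2 litter sets differed by -0.42 (resveratrol minus control, interval -1.80 to 0.96, limma adjusted p = 0.795), so no difference between them was shown. That value ran from -0.87 to -0.048 over fits that left out 1 library, and was -1.08 without the 4 libraries low in FABP6.

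MUC13 moved the other way from control litters in its means. It was at 66.1, 35.0 and 125 FPKM in sucking and at 392, 215 and 35.4 FPKM in weaned piglets of resveratrol sows, with a log2 fold change of 1.11 (interval -0.72 to 2.95). Over fits that left out 1 library it ran from 0.40 to 2.11, and it reached the standard at the upper end, without PW_Res replicate 3. PW_Res replicate 3 was as low as the lowest sucking library, while the other 2 weaned libraries were above all 3. The test of the difference between litter sets gave 1.95 (interval -0.64 to 4.54, limma adjusted p = 0.475). Over fits that left out 1 library that difference ran from 1.24 to 2.95, and it passed the standard at the upper end, without PW_Res replicate 3. MUC1 is left out of this comparison of litter sets, for the reason given below. None of the other genes of the 6 reached the standard or an unadjusted P under 0.05 with limma. Of all genes, 7.76% (1.81% upwards and 5.95% downwards) and 13.7% did.

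CLCA1 in resveratrol litters was at 247, 90.9 and 309 FPKM before and 277, 86.7 and 215 FPKM after weaning. Each age had 1 low library, W_Res replicate 2 and PW_Res replicate 2, and the log2 fold change was -0.14 (interval -1.37 to 1.08). AGR2 was at 83.9, 22.5 and 25.9 FPKM before and 23.3, 47.7 and 100.4 FPKM after weaning, with a log2 fold change of 0.39 (interval -0.84 to 1.62). Its single high library was replicate 1 before weaning and replicate 3 after it. MUC1 was at 0.589, 0.354 and 1.81 FPKM before and 0.451, 0.352 and 0.0840 FPKM after, a log2 fold change of -0.50. The value of 1.81 FPKM, in W_Res replicate 3, came for 79.4% from a second locus of 1 assembled transcript that was at 0 in 9 libraries, and MUC1 passed the minimum mean of 0.5 FPKM only with that locus. Its group means were 0.244 FPKM in W_Con, 0.555 in PW_Con, 0.296 in PW_Res and 0.916 in W_Res, so the gene passed through W_Res, and its differences that involve W_Res are given as a description with no test.

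The third question was what maternal resveratrol did before weaning. In sucking piglets, MUC13 had lower values in all 3 resveratrol libraries (35.0 to 125 FPKM) than in any control library (142 to 367 FPKM). The means were 75.4 ± 45.8 and 252 ± 113 FPKM (SD, n = 3). The log2 fold change was -1.81 (SE 0.84, interval -3.64 to 0.03, limma adjusted p = 0.276), just outside the standard, and in 21% of all genes the groups of this comparison did not overlap. Fitted on the 6 libraries alone, the same fold passed the standard, with an adjusted p of 0.344, and it passed as well without any 1 of 5 libraries (W_Con replicate 2, W_Res replicate 3, PW_Con replicate 2, PW_Res replicates 1 and 3). Over those 5 fits and the other 7 that left out 1 library the log2 fold change ran from -2.26 to -1.36. Villus enterocyte markers moved with it: 8 of 10 listed were tested, all 8 had negative log2 fold changes with a median of -0.82, and 2 of the 8, APOB and MTTP, both needed for chylomicron assembly, were lower past the standard, against 1.44% of all genes. The summed FPKM of those 8 was 4978 to 9673 in W_Con and 2855 to 5607 in W_Res. All 6 smooth muscle genes had positive log2 fold changes and 5 were higher past the standard, against 3.34% of all genes. The 10 lymphocyte and plasma cell genes were divided, with 5 negative and 5 positive log2 fold changes. The T cell genes CD3D, CD3E and CD3G were lower past the standard and 5 of the 10 had an unadjusted P under 0.05 (18.5% of all genes), while CD4 (0.31) and the B and plasma cell genes CD79A, CD79B, MS4A1 and JCHAIN (0.33 to 0.85) had positive values that were not called. The antimicrobial gene LYZ (1 of 2 tested) and the proximal marker SLC2A2 (1 of 6) were lower past the standard as well. The part of cell makeup in the MUC13 values was not tested.

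With MUC1 left out, as it has no test here, none of the other genes of the 6 reached the standard in sucking piglets with limma. None of them had an unadjusted P under 0.05 either. Of all genes, 4.77% (3.34% upwards and 1.44% downwards) and 18.5% did. An adjusted p under 0.05 was reached by 0.0466% of all genes and by none of the genes of the 6 tested here. TFF3 had a higher mean in resveratrol litters, with a log2 fold change of 0.74 (interval -0.23 to 1.72), and the groups overlapped because W_Res replicate 2 was at 363 FPKM. MUC1 differed by 0.56, a description as above, AGR2 by -0.52 (interval -1.75 to 0.71) and CLCA1 by -0.37 (interval -1.60 to 0.86). Over fits that left out 1 library TFF3 ran from 0.37 to 1.19 and AGR2 from -1.11 to -0.18. The summed SPDEF value was the steadiest of the 6 here. Its 3 sucking control libraries had a coefficient of variation of 8.42% and its 3 sucking resveratrol libraries one of 5.87%. The log2 fold change was 0.10 (interval -1.63 to 1.83, with the spread pooled over all 4 groups). The locus without an Ensembl transcript gave 94.3% to 98.1% of that sum in these libraries. The locus with an Ensembl transcript was at 2.25 to 4.51 FPKM in W_Con and 1.80 to 6.06 FPKM in W_Res, with a log2 fold change of 0.19.

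In weaned piglets, the fourth comparison, 0 of the 6 genes reached the standard or an unadjusted P under 0.05 with limma, against 1.55% (0.652% upwards and 0.9% downwards) and 7.76% of all genes. The groups of each of the 6 overlapped, while those of 17.2% of all genes did not. The log2 fold changes (resveratrol minus control) ran from -0.71 for AGR2 (interval -1.94 to 0.52) to 0.32 for TFF3 (SE 0.45). CLCA1 differed by -0.52 (interval -1.74 to 0.71) and MUC1 by -0.23 (interval -0.91 to 0.46). Over fits that left out 1 library CLCA1 ran from -0.92 to -0.02 and TFF3 from 0.02 to 0.56. MUC1, where it had a value, ran from -0.41 to -0.10. SPDEF differed by 0.24 (interval -1.50 to 1.97) and MUC13 by 0.14 (interval -1.69 to 1.98). The MUC13 value was 0.98 with the regional score as a covariate, and without the 4 libraries low in FABP6 it was 1.58, while those of SPDEF and TFF3 were then 1.08 and 0.0095, none of the 3 called. The AGR2 difference became -1.73 and was called without those 4, and it was also called without PW_Res replicate 3 (-1.23), while the fits that left out 1 library ran from there to -0.20. All of these intervals reach past a log2 fold change of 1 in one direction or both, except that of MUC1, a gene whose low FPKM compresses its fold on this scale. With a pseudocount of 0.1 the MUC1 log2 fold changes were 0.88 and -1.23 on weaning in control and resveratrol litters, 1.53 and -0.58 for resveratrol in sucking and weaned piglets and -2.11 for the difference between litter sets. Of these, the comparisons without W_Res were not called, and the others have no test. Cell markers moved between the weaned groups too. All 6 proximal markers were positive, median 1.13, with CYBRD1 and SLC46A1 called (0.652% of all genes rose). Of 6 distal markers 5 were negative, median -1.24, with 0 called. All 10 lymphocyte and plasma cell genes were negative, median -0.69, with 0 called. TOP2A, 1 of 8 crypt and cell division genes, was called lower (0.9% of all genes). Their part was not tested beyond the score covariate.

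**Figure D3:**
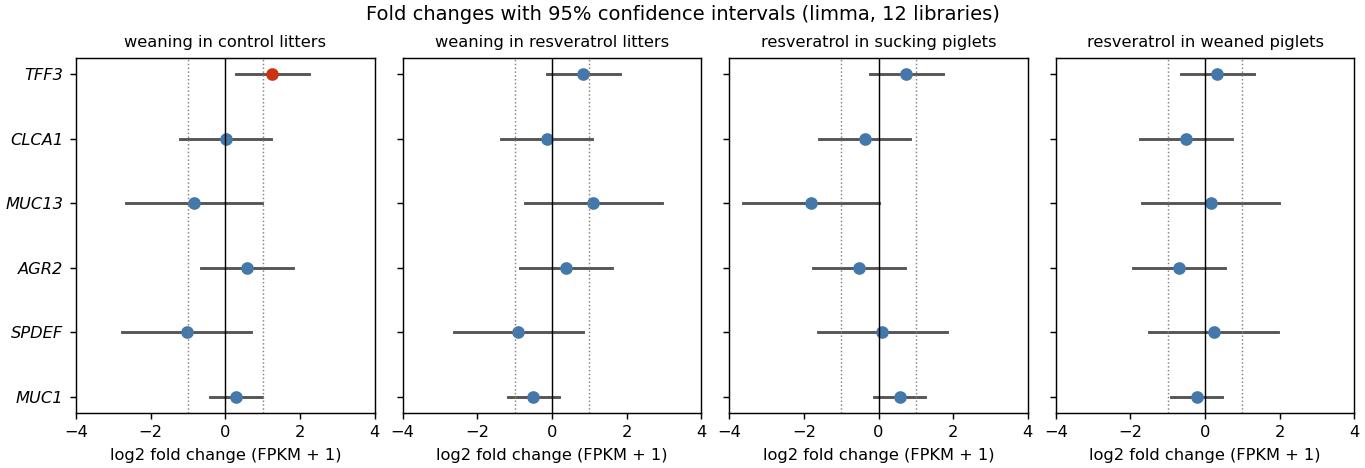
Log2 fold changes on the log2(FPKM + 1) scale with 95% confidence intervals for the 6 genes in the 4 comparisons, dotted lines at -1 and 1, and red for a gene at the standard of the study. TFF3 on weaning in control litters (1.26) is the one red point, and the interval of MUC13 for resveratrol in sucking piglets (-3.64 to 0.03) just crosses 0. For MUC1 the points of the comparisons that involve W_Res, the group through which it passed the minimum, are a description.

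Ordering the group means from low to high gave W_Con, W_Res, PW_Con and PW_Res for TFF3, at 424, 754, 1014 and 1275 FPKM. For MUC13 the order was W_Res, PW_Con, PW_Res and W_Con, at 75.4, 157, 214 and 252 FPKM. CLCA1 ran from 193 FPKM in PW_Res over 216 in W_Res and 259 in W_Con to 270.0 in PW_Con. AGR2 ran from 44.1 FPKM in W_Res over 54.1 in W_Con and 57.1 in PW_Res to 84.7 in PW_Con. In each of the 6 genes, every pair of groups next to each other in its order overlapped.

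The 6 genes did not share one pattern over the 12 libraries. Pearson correlations of log2(FPKM + 1) between pairs ran from -0.31 (MUC13 and SPDEF) to 0.39 (MUC1 and TFF3) over 12 libraries. After each group's mean was taken out, TFF3 and CLCA1 had a correlation of 0.66, TFF3 and MUC1 one of 0.64 and MUC13 and MUC1 one of 0.60. These points share libraries and their scaling.

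CLCA1 followed the regional marker score most closely. The score was the mean log2(FPKM + 1) of distal small intestinal and colonic markers minus that of proximal ones. The study reported its distal markers FABP6, SLC51A, NR1H4 and ENSSSCG00000026317 as raised in weaned piglets and its proximal marker SLC40A1 as lowered. The score and the FABP6 limit can therefore carry a weaning response as well as the region sampled, which cannot be told apart here. CLCA1 had a correlation of 0.66 with the score over 12 libraries and 0.68 within groups. Over all libraries and within groups the correlations were 0.42 and 0.56 for MUC1, 0.38 and 0.52 for MUC13, 0.22 and 0.22 for TFF3, 0.14 and -0.17 for AGR2 and -0.06 and 0.14 for SPDEF. The 3 lowest CLCA1 values were 86.7, 90.9 and 141 FPKM, of which the first 2 came from libraries with FABP6 under 15 FPKM and the third, from PW_Con replicate 2, did not. With the score as a covariate TFF3 in control litters still reached the standard on weaning (1.11, adjusted p = 0.324), and without the 4 libraries low in FABP6, an alternative chosen after seeing the data, it did as well (1.16, adjusted p = 0.373). For CLCA1 the weaning fold change in control litters turned from 0.01 to -0.62 with the covariate, without reaching the standard.

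**Figure D4:**
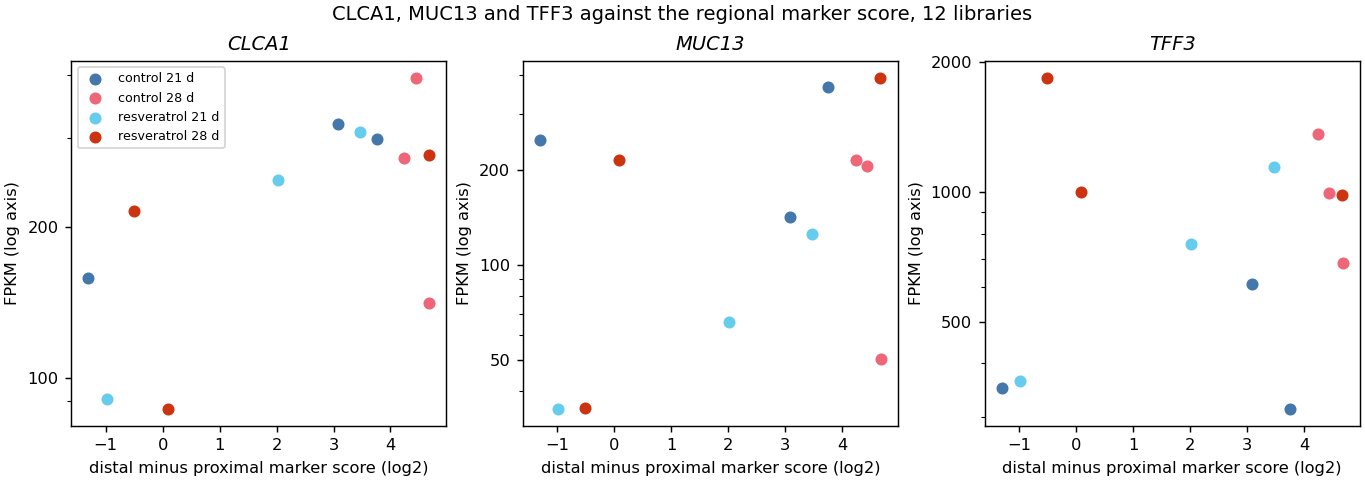
FPKM of CLCA1, MUC13 and TFF3 (log axes) against the distal minus proximal marker score (log2 units) in the 12 libraries, coloured by group. CLCA1 is low in 2 libraries with a score near or under 0 and reaches 396 FPKM among the high scores, while TFF3 has its highest value, 1841 FPKM, at a negative score.

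For each gene, the 3 named genes of at least 1 FPKM on average with the most similar profile over the 12 libraries were found among the 7742 or 7743 that qualified. CALR, the endoplasmic reticulum chaperone calreticulin, had the profile nearest to AGR2, with a Pearson correlation of 0.91 and a Spearman rho of 0.90, ahead of EME1 and MAGOH (both 0.88). CALR was also a gene of the folding list, in which PDIA3 (0.81) and PDIA4 (0.70), both protein disulfide isomerases, and HSPA5 (0.63), the chaperone BiP, had positive correlations too. Over the 15 genes of that list the correlations with AGR2 ran from -0.46 to 0.91, 8 positive and 7 negative, with a median of 0.01. TFF3 was nearest to TMEM160 (0.88), MGAT4B (0.87) and EMC10 (0.87). MGAT4B is an N-glycan branching enzyme and EMC10 a subunit of the endoplasmic reticulum membrane protein complex. CLCA1 was nearest to POF1B (0.89), NUS1 (0.89) and EXOC5 (0.86), the last a subunit of the exocyst that tethers secretory vesicles. MUC13 was nearest to COQ10B (0.82), ZNF652 (0.80) and SNRK (0.80), and MUC1 to UPK3A (0.88), GALC (0.85) and MSL2 (0.85). For SPDEF the leading gene LYSMD3 had a Pearson correlation of 0.89 and a rho of only 0.40, and ZNF45 (0.82) and TGDS (0.80) followed. With 12 points and so many genes searched, these values describe the libraries only.

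Other products that goblet cells store or release were read from a list of 25 genes, of which 16 were in the table and 14 were tested. TFF2, another trefoil peptide, lies next to TFF3 in the RefSeq annotation of Sscrofa11.1. TFF2 was at 32.8, 5.21 and 31.6 FPKM in sucking and at 73.5, 91.5 and 208 FPKM in weaned piglets of resveratrol sows. The groups were apart, as were those of 21.7% of all genes, and the log2 fold change was 2.57 (SE 0.70, limma adjusted p = 0.145). In control litters its values, 13.3, 36.4 and 33.2 FPKM before and 73.6, 18.8 and 39.0 FPKM after, overlapped and it was not called. Between the weaned groups TFF2 was higher with resveratrol by 1.54 (limma adjusted p = 0.643), with overlapping libraries. The call was lost in 6 of the 12 fits that left out a library and in 8 of the 12 other alternatives. Over the fits that left out a library the log2 fold change was 1.05 to 2.01. Cell markers also moved between these groups, as given above, and their part in TFF2 was not tested. Without the 4 libraries low in FABP6, which leaves 1 library in PW_Res, the weaning change was 1.17 and not called. Over the 12 libraries TFF2 had a correlation of 0.78 with TFF3, the highest of the 14 genes of its list, for which it ran from -0.68 to 0.78 with 7 positive, 7 negative and a median of 0.06.

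RETNLB, an antibacterial resistin-like protein secreted by goblet cells, fell on weaning in resveratrol litters, from 109, 180 and 128 FPKM to 58.5, 60.4 and 52.9 FPKM. The log2 fold change was -1.23 (SE 0.27, limma adjusted p = 0.124). In control litters RETNLB went from 130, 140 and 84.6 FPKM to 61.7, 59.3 and 98.9 FPKM, a log2 fold change of -0.69 (limma adjusted p = 0.258) under the fold limit. Thus 1 of the 14 genes rose and 1 fell on weaning in resveratrol litters, where 0.986% of all genes rose and 3.95% fell. An unadjusted P under 0.05 was found for 4 of the 14 there, against 17.6% of all genes. In control litters 0 of the 14 reached the standard with limma and 3 an unadjusted P under 0.05, against 3.1% and 15.3% of all genes. The median log2 fold change of the list was 0.03 in resveratrol and -0.12 in control litters, beside -0.15 and -0.01 over all genes. Resveratrol in sucking piglets moved 0 of the 14 past the standard or an unadjusted P under 0.05, where 4.77% and 18.5% of all genes reached them. In weaned piglets it moved 1, TFF2, past the standard and 2 past an unadjusted P under 0.05 (1.55% and 7.76% of all genes).

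The transcription factors and Notch genes that steer secretory cells formed a list of 16, of which 14 were tested. HES6, a bHLH factor that opposes HES1, rose on weaning in control litters, from 4.79, 6.13 and 1.22 FPKM to 7.03, 9.21 and 12.1 FPKM. The log2 fold change was 1.18 (SE 0.38, limma adjusted p = 0.178), and it was lost without W_Con replicate 3 (0.67), with the regional score as a covariate (0.90) and without the 4 libraries low in FABP6 (0.67). HES6 was the single gene of the list at the standard there, while an unadjusted P under 0.05 was seen for 6 of the 14 and 12 had a positive log2 fold change, where 3.1% of all genes reached the standard and 15.3% an unadjusted P under 0.05. The median was 0.27, beside -0.01 over all genes. In resveratrol litters 0 of the 14 reached the standard with limma, 2 had an unadjusted P under 0.05 (4.94% and 17.6% of all genes) and the median was -0.15, the same as over all genes to that precision. Resveratrol moved 0 of the 14 past the standard in sucking piglets, with 3 at an unadjusted P under 0.05 (4.77% and 18.5% of all genes), and 0 in weaned piglets, with 1 (1.55% and 7.76%). In sucking piglets 11 of the 14 had a positive log2 fold change, with a median of 0.31 beside 0.08 over all genes, in a comparison that shares the W_Con libraries with weaning in control litters.

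KLF4, a factor of terminal goblet cell differentiation, was named after its values were seen. It was at 14.2, 12.2 and 13.7 FPKM in W_Con and at 18.5, 21.5 and 21.2 FPKM in PW_Con. In resveratrol litters it was at 13.0, 12.1 and 15.9 FPKM before and 22.7, 19.2 and 20.6 FPKM after weaning, so each age kept to its own range in both litter sets. On weaning, 24.9% of all genes had groups that did not overlap in control litters and 21.7% in resveratrol litters. The share apart in both was not computed. The log2 fold changes of KLF4 were 0.58 in both (SE 0.16, limma adjusted p = 0.139 and 0.147), under the fold limit of 1. CREB3L1, a membrane-bound factor of secretory cells also named after its values were seen, was at 9.28, 11.3 and 5.70 FPKM in W_Con and 18.5, 11.5 and 20.9 FPKM in PW_Con. Its log2 fold change was 0.88 (limma adjusted p = 0.182), and it was 0.98 between the sucking groups (limma adjusted p = 0.133), where all 3 W_Res libraries, up to 19.8 FPKM, lay above all 3 W_Con ones. Between the sucking groups, 21% of all genes did not overlap. These 2 comparisons share the W_Con libraries.

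**Figure D5:**
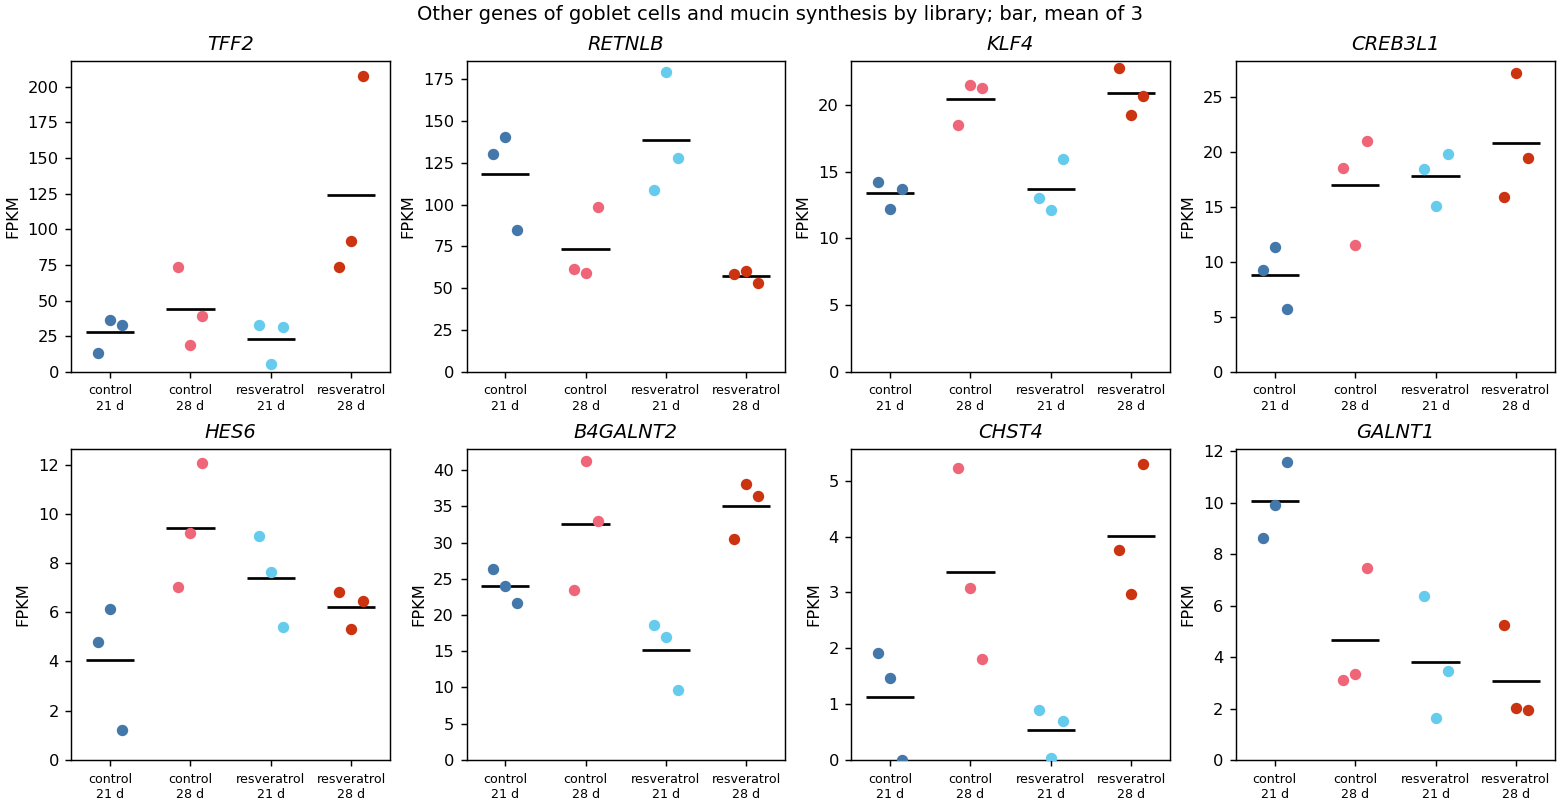
FPKM of 8 other genes of goblet cells and mucin synthesis (linear axes from 0) in the 3 libraries of each group, with the group mean as a bar. KLF4 is at 12.1 to 15.9 FPKM in the 6 sucking libraries and at 18.5 to 22.7 FPKM in the 6 weaned ones, and TFF2 is at 73.5 to 208 FPKM in PW_Res.

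Of 32 enzymes and carriers of mucin O-glycosylation listed, 24 were in the table and 22 were tested. On weaning in control litters CHST4, a sulfotransferase of N-acetylglucosamine, rose by 1.10 (limma adjusted p = 0.254), a call lost without W_Con replicate 3 (0.63) or PW_Con replicate 1 and with the regional score as a covariate (0.72). GALNT1, which starts O-glycans on serine and threonine, fell by 1.04 on the log2 scale (limma adjusted p = 0.266), from 8.65, 9.93 and 11.6 FPKM to 3.13, 3.36 and 7.46 FPKM, and that call was lost without W_Con replicate 2 or 3 or PW_Con replicate 1 or 2, and without the 4 libraries low in FABP6 (-0.94). 20 of the 22 were not called there and 4 had an unadjusted P under 0.05, where 3.1% of all genes were called and 15.3% had such a P. In resveratrol litters 3 rose and 1 fell, where 0.986% of all genes rose and 3.95% fell. An unadjusted P under 0.05 was seen for 9 of the 22 (17.6% of all genes), and 17 of the 22 had a negative log2 fold change. Smooth muscle genes and POU2F3 fell in the same comparison, as given above, and their part was not tested. B4GALNT2, which makes the Sd(a) glycan, went from 18.7, 17.0 and 9.65 FPKM to 30.5, 38.0 and 36.5 FPKM (log2 fold change 1.20, SE 0.26, limma adjusted p = 0.124). That call was lost without W_Res replicate 3 (0.93). CHST4 went from 0.888, 0.0384 and 0.690 FPKM to 3.75, 2.97 and 5.30 FPKM (1.72, limma adjusted p = 0.129). GAL3ST1, a galactose sulfotransferase, rose by 1.53 (limma adjusted p = 0.229), and not past the standard without W_Res replicate 2 or PW_Res replicate 1 (0.91).

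The gene of this list that fell on weaning in resveratrol litters was the sialyltransferase ST3GAL1, by 2.43 on the log2 scale (limma adjusted p = 0.276). It was at 79.6, 68.9 and 128 FPKM before and 8.41, 4.32 and 92.6 FPKM after weaning, so 2 low libraries carried the change. The call was lost in 8 of the 12 fits that left out a library. Over those 12 fits the log2 fold change ran from -3.67 to -1.60, so the P-value lost those calls. The list's median was -0.30 in resveratrol litters, beside -0.15 over all genes, and 0.08 in control litters. In sucking piglets GALNT1 was lower with resveratrol (log2 fold change -1.31, limma adjusted p = 0.149), a call lost without W_Res replicate 2 (-0.94) and without the 4 libraries low in FABP6 (-0.84), and the other 21 were not called. There 4.77% of all genes were called, and 6 of the 22 had an unadjusted P under 0.05 against 18.5% of all genes. In weaned piglets GALNT12, of the family that starts O-glycans, was lower with resveratrol (-1.84, limma adjusted p = 0.609), at 14.9, 1.94 and 3.47 FPKM against 21.7, 11.7 and 31.8 FPKM. It was the 1 call among the 22, with 3 at an unadjusted P under 0.05, against 1.55% and 7.76% of all genes. PW_Res replicates 2 and 3, the low values, were among the libraries low in FABP6, and the call was lost without either of them or without PW_Con replicate 1 or 3. Over fits that left out 1 library the log2 fold change ran from -2.55 to -1.33. With the regional score as a covariate the GALNT12 difference was -0.54, and without the 4 libraries low in FABP6 it was -0.42, neither called. GALNT12 had a correlation of 0.78 with CLCA1 over 12 libraries, the highest among 20 genes of the list, which ran down to -0.43 with a median of 0.23.

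Folding and processing genes of the endoplasmic reticulum, 15 of 16 listed, were all tested. TGM3, a transglutaminase that crosslinks mucus, rose on weaning in control litters by 1.58 (limma adjusted p = 0.303), from 0.581, 2.17 and 0.0577 FPKM to 9.29, 1.99 and 3.58 FPKM. Its call was lost in 5 of the 12 fits that left out a library, over which the log2 fold change was 1.09 to 2.01. The other 14 were not called, where 3.1% of all genes were, and 2 of the 15 had an unadjusted P under 0.05 (15.3% of all genes). With limma, 0 of the 15 reached the standard in the other 3 comparisons, where 4.94%, 4.77% and 1.55% of all genes did. An unadjusted P under 0.05 was seen for 0 on weaning in resveratrol litters, 2 for resveratrol in sucking and 1 in weaned piglets (17.6%, 18.5% and 7.76% of all genes). CALR itself, the gene nearest to AGR2, was at 299 to 704 FPKM.

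Of 17 cytokines, receptors and channels that regulate mucus, 13 were in the table and 8 were tested. With limma, 0 of the 8 reached the standard in any of the 4 comparisons, against 3.1%, 4.94%, 4.77% and 1.55% of all genes in the order used above. In that order 0, 1, 2 and 2 had an unadjusted P under 0.05, against 15.3%, 17.6%, 18.5% and 7.76% of all genes. IL13RA1, a chain of the IL-13 receptor, was named after its values were seen: it went from 34.2, 46.6 and 43.2 FPKM to 25.2, 19.7 and 21.6 FPKM on weaning in resveratrol litters (-0.87, limma adjusted p = 0.146). Of 14 other mucins listed, MUC15 was found by name and MUC6 by Ensembl ID, and their summed FPKM was 0 to 1.22, so neither was tested.

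Cell markers beside the weaning comparison of control litters were as follows. The villus enterocyte genes APOB, FABP2 and MTTP, 3 of 8 tested, fell past the standard, which 3.1% of all genes reached (1.74% downwards), and the list's summed FPKM was 3218 to 7091 in PW_Con against 4978 to 9673 in W_Con. Of 8 crypt and cell division genes tested, 0 reached the standard or an unadjusted P under 0.05 with limma, where 15.3% of all genes had such a P. Among 7 enteroendocrine genes tested PYY rose and GIP fell, and among 10 lymphocyte and plasma cell genes CD79B rose. Of all genes, 1.36% rose and 1.74% fell past the standard. The 3 CD79B values in PW_Con were 2.25, 37.5 and 3.29 FPKM, so replicate 2 stood far above the other libraries. Of the Paneth and antimicrobial list 2 genes were tested and 0 were called or had an unadjusted P under 0.05, with log2 fold changes of 0.33 for LYZ and 4.20 for REG3G. REG3G, an antibacterial lectin, was at 97.8, 0 and 33.8 FPKM before and at 1657, 8.59 and 1331 FPKM after weaning, so the groups overlapped. Smooth muscle genes had 0 calls among 6 in control litters, with 0 at an unadjusted P under 0.05. On weaning in resveratrol litters they had 5 lower calls among 6, against 3.95% of all genes. All 6 distal markers had positive log2 fold changes in control litters, median 1.11, with 0 calls and 0 at an unadjusted P under 0.05. The 6 proximal markers all had negative ones, median -1.11, with 2 at an unadjusted P under 0.05 and 1 call, SLC40A1. Beside these, 15.3% of all genes had such a P and 3.1% were called. The part of these shifts in the TFF3 result was not tested beyond the score covariate given above.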

How the data were processed

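The deposited gene table gave one FPKM value per locus and library. Per the study's methods, the authors aligned paired-end reads to the Ensembl pig genome with TopHat and estimated FPKM with StringTie and Ballgown. The submitters' processing notes name Bowtie 0.12.2, HISAT2 2.0, StringTie 1.3.0 and the builds Sscrofa10.2 and mm8. FPKM values are not counts, so the number of fragments behind a gene is unknown. List genes with no matching gene name were sought by Ensembl ID (17 found). Loci sharing a gene name were summed, and genes with a mean of at least 0.5 FPKM (12886) were fitted on log2(FPKM + 1) with limma 3.58.1 in R 4.3.3 (4 group means, empirical Bayes with a trend, Benjamini-Hochberg adjustment over all genes fitted, two-sided). Added to low values, the 1 FPKM shrinks their fold changes. A gene was called at the study's standard, an unadjusted P under 0.05 and an absolute log2 fold change over 1. The fit was tested on simulated data. The genes and gene lists were chosen with earlier results of these data known. From each list the text names genes of at least 1 FPKM called in one of the 4 two-group comparisons, up to 6 by the size of the fold change, and other genes as chosen after their values were seen. SPINK4, PDIA3, PDIA4 and HSPA5, not called in any comparison, are named outside this rule for their levels or correlations. Some cell markers that were not called are named outside it as well. Alternatives varied the pseudocount (0.1), the minimum FPKM (none, 5), the scaling, the trend, the libraries, the loci and covariates.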

Additional observations from a re-analysis of the deposited data

Results flagged for a closer look

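MUC1 has no test of the difference between the litter sets. In none of the other genes of the 6 did the change on weaning differ between the litter sets at the standard of the study. In the lists around them, 3 genes did, by the test of the difference itself (resveratrol minus control litters, limma, unadjusted), and none passed adjustment. These were 3 of 73 list genes tested (4.11%), below the 7.76% of all genes at the standard in this comparison. Of 56 cell type markers 11 were called (19.6%): APOB, MTTP, SLC2A2 and SLC46A1 upwards, and ACTG2, CNN1, DES, TAGLN, CHGA, POU2F3 and CD79B downwards. HES6 differed by -1.38 (adjusted p = 0.305): it rose in control litters and was at 9.12, 7.63 and 5.41 FPKM before and 6.83, 5.33 and 6.47 FPKM after weaning in resveratrol litters. HES1, the Notch target that holds cells back from the secretory fate, differed by -1.01 (adjusted p = 0.277), with 11.7, 9.33 and 10.3 FPKM in W_Con, 15.7, 16.4 and 23.8 FPKM in PW_Con, 16.5, 28.7 and 14.3 FPKM in W_Res and 15.8, 17.7 and 14.2 FPKM in PW_Res. B3GNT3, which extends core 1 O-glycans, differed by -1.27 (adjusted p = 0.251): it was at 4.09, 4.97 and 2.55 FPKM in W_Con, 5.95, 6.47 and 5.52 FPKM in PW_Con, 5.69, 9.26 and 6.05 FPKM in W_Res and 4.09, 3.88 and 3.37 FPKM in PW_Res, so its weaned libraries lay above the sucking ones in control litters and below them in resveratrol litters. HES1 and B3GNT3 were named after their values were seen. On weaning, 24.9% of all genes had groups that did not overlap in control litters and 21.7% in resveratrol litters. The highest HES1 and B3GNT3 values were in W_Res replicate 2, the library with the highest smooth muscle sum, and the part of that library was not tested for HES1 and B3GNT3 beyond leaving it out. Without it the difference was -1.08 and called for B3GNT3, and -0.72 and not called for HES1. The HES1 difference was also lost without W_Con replicate 2, PW_Con replicate 3 or PW_Res replicate 3, and that of HES6 without W_Con replicate 3 (-0.87), W_Res replicate 1, PW_Con replicate 3 or PW_Res replicate 2. Without the 4 libraries low in FABP6 none of the 3 was called (HES6 -0.71, HES1 -0.72, B3GNT3 -0.77).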

How the results depend on the processing

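MUC1 is left out of the counts that involve W_Res. The number of the 6 genes at the standard was 1 on weaning in control litters and 0 in the other comparisons. Each count ran from 0 to 1 over fits that left out 1 library. The call in control litters was lost without W_Con replicate 1 or PW_Con replicate 3. The count became 1 on weaning in resveratrol litters (TFF3) under median-of-ratios rescaling, without W_Res replicate 3 and, for MUC13, without PW_Res replicate 3. For resveratrol in sucking piglets it became 1 under median-of-ratios rescaling, with the replicate block, with only the 6 libraries compared and with the score covariate (MUC13 in each, -1.90, -1.81, -1.81 and -1.71), and without the 4 libraries low in FABP6 (TFF3, 1.09). Without those 4, which leaves 1 library in PW_Res whose spread is taken from the other groups, it also became 1 for resveratrol in weaned piglets (AGR2, -1.73) and for the difference between litter sets (MUC13, 2.89; with the score covariate 2.69). Single libraries whose loss gave a call were also W_Res replicate 2 (TFF3 in sucking piglets 1.19) and PW_Res replicate 3 (AGR2 in weaned piglets -1.23). The cause was not tested.

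Signs turned, with no call, for CLCA1: on weaning in control litters -0.62 with the covariate and -0.32 without the 4 libraries, in resveratrol litters 0.074 under median-of-ratios and 0.00329 without the 4, between weaned groups 0.21 and 0.16 (covariate, without the 4), and for the difference 0.054 (median-of-ratios), 0.49 and 0.32. AGR2 turned to -0.98 on weaning in resveratrol litters without the 4 and to 0.011 for the difference under median-of-ratios, MUC1 to 0.070 between weaned groups with the covariate, and SPDEF to 0.34 and 0.52 with Ensembl loci only. Over fits that left out 1 library the ranges that crossed 0 were, for CLCA1, -0.33 to 0.41 and -0.67 to 0.35 (weaning, control and resveratrol), -0.72 to 0.16 (sucking) and -0.68 to 0.35 (difference); for AGR2, -0.13 to 0.97 (weaning, resveratrol) and -0.71 to 0.40 (difference); for SPDEF, -1.44 to 0.055 (weaning, resveratrol), -0.66 to 1.19 (weaned groups) and -0.77 to 1.09 (difference); and for MUC13, -0.57 to 1.14 (weaned groups).

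TFF3 on weaning in control litters was 1.02 to 1.55 over 24 alternatives (adjusted p 0.155 to 0.480). For 400 values of the list genes under alternatives other than a lost library, none changed sign and 57 lost their call or their P under 0.05, as did 77 of 408 without 1 library. Same-numbered libraries of different groups had correlations of -0.26 to 0.30 and others -0.27 to 0.36. These ranges did not show a pairing by number. They cannot exclude that libraries of different groups shared litters, so the pairing is unknown. The replicate block changed no other count. MUC1 fell under the minimum mean, and so has no value, in 3 of the 12 fits without 1 library, at a minimum of 5 FPKM, under median-of-ratios rescaling and with 1 locus per gene or Ensembl loci only. With only the 6 libraries compared, MUC1 also had no value on weaning in control litters and between weaned groups. Without the 4 libraries MUC13 on weaning in resveratrol litters was 2.09, SPDEF -0.091 and the AGR2 difference -1.37, none called. The fragments behind a low FPKM are unknown, which limits MUC1 most.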
